A study of Mus musculus with 9 samples.

Results

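Integrins, laminins and the basement membrane linkers that hold laminin in place were followed in RNA from mouse hearts, through the genes whose symbols begin with Itga, Itgb or Lam followed by a chain letter and a number, plus Nid1, Nid2 and Hspg2. The rule found 36 of the 13539 genes listed, and 4 further family members, Lama1, Lamc3, Itgad and Itgae, were not analysed here. The hearts came from male mice aged 12 weeks on the C57BL/6JOlaHsd background, in 3 groups of 3 libraries. The first group was wild type and received isoproterenol, a β-adrenergic agonist, at 10 mg/kg per day from an implanted minipump for 7 days. Another consisted of OMA1 knockout mice given the same drug in the same way, and the remaining group of OMA1 knockout mice left untreated. OMA1 is a protease that mitochondria switch on under stress, and how its gene was disrupted is not given in the sources used here. Both knockout groups carry this disruption, wild-type hearts without treatment were not analysed here, and the untreated mice are not described as carrying a pump. The drug therefore cannot be told apart from the implantation, and whether genotype changed the response to the drug could not be tested. The labels give no animal numbers, so the p-values measure the spread between these libraries.

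A basement membrane is a thin sheet of matrix that surrounds each cardiomyocyte and lies under the endothelium of every vessel. Laminins, trimers of an alpha, a beta and a gamma chain, form its cell-facing network; collagen IV forms the other network, and nidogens and perlecan, the heparan sulfate proteoglycan encoded by Hspg2, link them. Cells hold on to laminin through integrins, dimers of an alpha and a beta subunit whose alpha subunit largely decides the ligand, and through dystroglycan, and in the heart these contacts carry force from the sarcomere to the matrix. Lama2 is the alpha chain typical of muscle laminin and Lama4 and Lama5 are those typical of vessels, while Itga7 is the main laminin-binding alpha subunit of mature striated muscle.

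The libraries held 6933879 to 12187701 reads, and values are normalised counts, the authors' read counts scaled to library size. Oma1 stood at 19.9 ± 2.16 (SD, n = 3) in treated wild-type hearts, 6.24 ± 0.502 in treated and 7.42 ± 1.46 in untreated knockout hearts. Every knockout library was below every wild-type library (log2 difference between the treated groups -1.53, limma adjusted p = 4.7e-05), and Oma1 reads were still counted in the knockout hearts, so that the loss of the protein rests on the labels. The 36 genes made up 0.294% to 0.336% of the summed values in treated wild-type libraries, 0.237% to 0.249% in untreated and 0.291% to 0.303% in treated knockout libraries. Transcripts of the mitochondrial genome took 36.7% to 37.3%, 33.9% to 34.6% and 38.2% to 42.5% in the same order, with treated knockout replicate 2 the highest. Markers of cardiomyocytes, all 8 of 8 listed, summed to 40102 to 46139 in treated wild-type, 45823 to 49609 in untreated and 41835 to 44296 in treated knockout libraries. Treated wild-type replicate 3 stood apart through activated fibroblast markers (summed level 1449, against 257 and 340.4 in the other libraries of its group), and each call of a member that changed without it or without treated knockout replicate 2 is given both ways.

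Of the 36 genes, 20 reached the minimum for testing, a value of 10 or more in 3 or more of the 9 libraries. Recovered reads behind these 20 ranged from 30 for Itgam in its lowest library to 7389 for Hspg2 in its highest. Itgam reached the minimum only in treated libraries, so that its place among the tested genes rested on the groups where it was high. Itga3 reached it in every untreated knockout library, but among treated libraries only in wild-type replicate 1 and knockout replicate 2. The place of Itga3 thus rested on the untreated group, where it was high. No listed pair of family members overlapped, and the closest neighbours were Itgam and Itgax on chromosome 7, 11055 bases apart.

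Divided by the length of each gene's exons in kilobases, Itgb1, the beta subunit shared by most laminin, collagen and fibronectin receptors, had the highest level of the family in every group. It stood at 118 ± 6.32 normalised counts per kilobase (SD, n = 3) in treated wild-type hearts, 94.8 ± 2.51 in treated and 84.6 ± 0.883 in untreated knockout hearts, apart from the next gene in each group. In untreated knockout hearts Lamb2 came next at 45.6 ± 1.14 per kilobase, clear of Hspg2 at 28.8 ± 1.62. In treated knockout hearts Hspg2 was above Lamb2, with 45.7 ± 4.99 per kilobase against 38.6 ± 1.79, and the libraries of these 2 genes did not overlap. In treated wild-type hearts Hspg2, Lamc1, Lamb2 and Nid1 followed Itgb1 with overlapping libraries, from 38.7 ± 2.11 down to 33.8 ± 3.72 per kilobase.

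The make-up of the laminin chains differed between the groups. Among the 4 listed alpha chains, per kilobase and with the low, untested Lama3 included, Lama5 held 50.2% ± 2.91 of the summed level in untreated and 45.8% ± 2.05 in treated knockout hearts, and 34.7% ± 1.74 in treated wild-type hearts. Lama4 held 22.8% ± 2.28, 34.3% ± 1.44 and 37.0% ± 1.29 in the same order, so that its share was lower in each untreated library than in any treated one. The share of Lama2 was 25.8% ± 0.873, 18.6% ± 1.70 and 27.2% ± 0.980, and in every treated knockout library it was below every other library. Which alpha chain leads depends on the length used: with the longest transcript of each gene, Lama4 led in treated wild-type (47.4%) and treated knockout hearts (46.5%), and Lama5 led only in untreated knockout hearts (35.7%). The order of the groups for each chain was the same with either length, except for Lama2, for which untreated knockout hearts (31.1%) then came above treated wild-type hearts (29.6%).

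Among the beta chains, the ratio of normalised counts of Lamb1 to Lamb2, not divided by length, was 0.338 ± 0.0195 in untreated and 0.655 ± 0.0242 in treated knockout hearts, and 0.771 ± 0.0585 in treated wild-type hearts, and no libraries of different groups overlapped. Lamb1 and Lamc1, the gamma chain of nearly all heart laminins, had a ratio of 0.521 to 0.590 in treated wild-type and 0.573 to 0.637 in untreated and 0.585 to 0.645 in treated knockout libraries. Of the laminin-binding integrin alpha subunits, Itga6 made up 36.9% ± 2.29 of the summed level per kilobase in untreated and 59.7% ± 2.05 in treated knockout hearts, and 50.5% ± 0.217 in treated wild-type hearts. Itga7 made up 56.3% ± 1.65, 35.0% ± 2.32 and 44.1% ± 0.314 in the same order, so that Itga7 led in untreated and Itga6 in treated hearts. These shares and ratios are descriptions with no test.

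**Figure D1:**
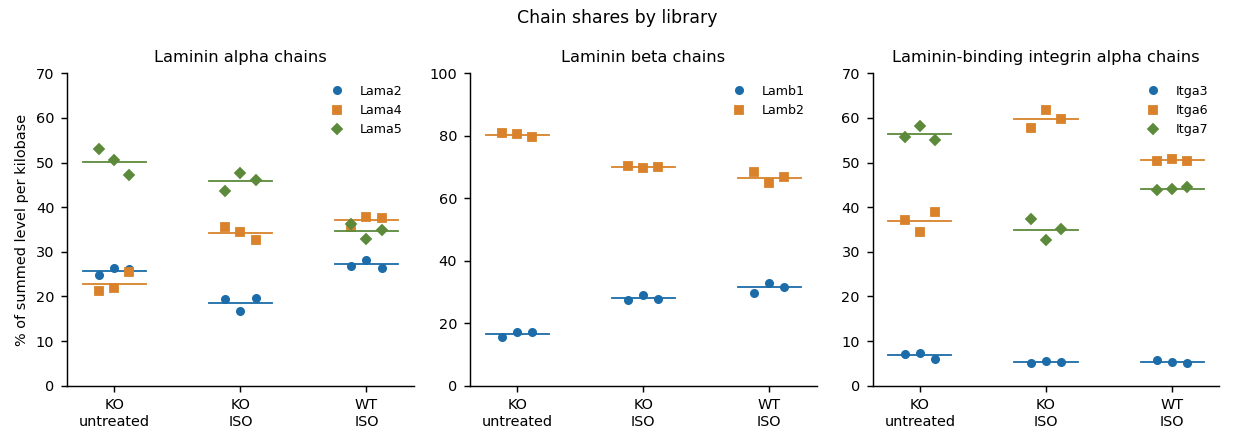
Share of each chain in the summed level per kilobase, in %, for the laminin alpha chains, the laminin beta chains and the laminin-binding integrin alpha subunits; each point is 1 library and each line the mean of the 3 libraries of a group (KO, OMA1 knockout; WT, wild type; ISO, isoproterenol). Itga6 and Itga7 change places between untreated knockout (36.9% and 56.3%) and treated knockout hearts (59.7% and 35.0%), and Lama2 is lowest in treated knockout hearts (18.6%).

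Start site regions were read for 25 of the 36 genes from RefSeq on GRCm38.p6, 28 regions of 300 bases that run from 250 bases before to 50 after an annotated start. The 5 regions printed here belong to the beta chains that moved in opposite directions under treatment, Lamb1 and Lamb2, to the linkers Nid1 and Hspg2, which rose, and to Itga3, which fell (values follow). They are written 5′ to 3′, with capitals for 3 motifs on either strand, the GC box GGGCGG, the cAMP response element half-site TGACG and the AP-1 site TGANTCA.
Lamb1 (chr12:31265043-31265342, plus strand): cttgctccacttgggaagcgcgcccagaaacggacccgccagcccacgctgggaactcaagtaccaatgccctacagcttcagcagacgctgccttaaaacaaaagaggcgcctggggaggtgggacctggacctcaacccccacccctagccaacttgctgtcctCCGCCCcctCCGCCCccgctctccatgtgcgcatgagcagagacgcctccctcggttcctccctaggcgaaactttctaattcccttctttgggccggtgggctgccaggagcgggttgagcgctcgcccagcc
Lamb2 (chr9:108479612-108479911, plus strand): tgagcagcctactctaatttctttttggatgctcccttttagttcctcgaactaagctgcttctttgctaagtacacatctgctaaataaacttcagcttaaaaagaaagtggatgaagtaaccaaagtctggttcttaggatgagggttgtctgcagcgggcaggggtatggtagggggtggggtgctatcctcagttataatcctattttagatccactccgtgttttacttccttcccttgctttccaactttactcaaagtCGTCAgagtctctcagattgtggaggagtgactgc
Nid1 (chr13:13437352-13437651, plus strand): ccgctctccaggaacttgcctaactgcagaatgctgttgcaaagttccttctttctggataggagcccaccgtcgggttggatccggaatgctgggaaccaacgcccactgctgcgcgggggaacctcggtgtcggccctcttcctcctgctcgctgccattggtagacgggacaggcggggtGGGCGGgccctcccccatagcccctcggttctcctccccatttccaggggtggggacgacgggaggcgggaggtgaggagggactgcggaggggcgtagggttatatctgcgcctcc
Hspg2 (chr4:137468553-137468852, plus strand): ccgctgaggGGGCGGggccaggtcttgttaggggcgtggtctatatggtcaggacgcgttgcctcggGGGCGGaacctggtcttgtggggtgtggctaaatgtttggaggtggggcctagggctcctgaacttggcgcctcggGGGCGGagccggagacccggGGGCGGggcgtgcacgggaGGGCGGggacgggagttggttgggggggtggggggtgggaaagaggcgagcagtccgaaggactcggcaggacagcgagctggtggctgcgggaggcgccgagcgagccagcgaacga
Itga3 (chr11:95076665-95076964, minus strand): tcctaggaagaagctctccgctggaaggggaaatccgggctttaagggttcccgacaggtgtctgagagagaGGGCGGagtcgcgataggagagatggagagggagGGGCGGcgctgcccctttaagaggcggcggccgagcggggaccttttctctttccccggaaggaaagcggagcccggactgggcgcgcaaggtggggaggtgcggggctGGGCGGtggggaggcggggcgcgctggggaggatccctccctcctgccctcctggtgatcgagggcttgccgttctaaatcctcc

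The GC box was found in 14 of the 28 regions, against 35.7% of all 32851 regions of this length. Hspg2 had 5 copies, Lamb1 2 and Nid1 1, and no copy was found in the window of Lamb2. Itga3 had 3 in the region printed and 1 in another start region, which is not printed. The half-site TGACG was found in 5 of the 28 regions, among them that of Lamb2, against 20.8% of all regions. TGANTCA was found in 3, among them the Itga3 region not printed, against 7.81%. The TEAD motif GGAATG was in 4 of the 28, against 14.7% of all regions. Neither the TATA box TATAAA (13.6% of all regions) nor the E-box CACGTG (7.15%) was in any of them. CpG pairs numbered 18 in the Lamb1 and 4 in the Lamb2 region, with a median of 12 over the 28 and of 7 over all regions. These matches are descriptions of the letters only.

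The comparison of treated with untreated knockout hearts shows isoproterenol with its pump against no treatment in mice labelled as OMA1 knockout. Transcripts of both nidogens, perlecan and the laminin chains Lama4, Lamb1 and Lamc1 rose, and so did the integrin subunits Itga1, Itga5, Itga6 and Itgam. Transcripts of Lamb2, Itga3, Itga7, Itga9 and Itgb6 fell. Itgam and Itga3 are in the counts that follow, though each met the minimum for testing only through the groups where it was high. Of the 20 tested members, 10 rose and 5 fell by limma on log2(value + 1) at an adjusted p of 0.05, where 23.9% and 27.4% of all 8543 tested genes did, and the median log2 difference was 0.31 for the tested members and -0.02 for all genes. With the libraries scaled without mitochondrial transcripts, 12 members were higher and 3 lower, while the higher genes went from 46.6% to 62.9% of all calls. All 20 tested members, called or not, lay without overlap between these groups, 12 higher and 8 lower. Lack of overlap therefore does not set the called members apart, and its share over all tested genes is not given here. In whole tissue, fewer cells of a type and less RNA per cell cannot be told apart.

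The linkers all rose. Nid2, a nidogen (chromosome 14, 19751265 to 19811787), stood at 17.998, 18.1 and 14.9 in the untreated and 34.8, 50.4 and 35.3 in the treated knockout libraries. The groups were far apart, replicate 2 was the highest treated library, and the log2 difference was 1.18 ± 0.13 (SE; adjusted p = 1.5e-05). Nid1, the more abundant nidogen (chromosome 13, 13437551 to 13512269), stood at 109.8, 116 and 124 untreated and 238, 224 and 212 treated, without overlap, and differed by 0.94 ± 0.09 (adjusted p = 3.2e-06) on the log2 scale. Hspg2 (chromosome 4, 137468769 to 137570630) stood at 396, 439 and 401 untreated and 628, 735 and 599 treated. Each treated library exceeded each untreated one, and the log2 difference was 0.66 ± 0.08 (adjusted p = 3.6e-05).

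Among the laminin chains, Lama4 (chromosome 10, 38965515 to 39110188) stood at 65.1, 66.2 and 77.0 in untreated and 135, 131 and 125 in treated knockout libraries. It was higher in all 3 treated libraries, by 0.90 ± 0.09 (adjusted p = 4.3e-06) on the log2 scale. Lamb1 (chromosome 12, 31265234 to 31329644) went from 89.5, 96.2 and 95.1 to 151, 166 and 144, with the groups well separated and a log2 difference of 0.71 ± 0.07 (adjusted p = 6.0e-06). Lamc1 (chromosome 1, 153218922 to 153332786) went from 141, 152 and 166 to 256, 257 and 247, again without overlap, a log2 difference of 0.73 ± 0.08 (adjusted p = 1.0e-05). Lamb2, the beta chain of the neuromuscular synapse (chromosome 9, 108479736 to 108490530), moved the other way. It stood at 284, 278 and 269.8 untreated and 238, 243 and 222 treated, and every treated library was below every untreated one (log2 difference -0.24 ± 0.07 (adjusted p = 0.0096)). Its fall did not pass when the libraries were scaled without mitochondrial transcripts (-0.13, adjusted p = 0.10) or by cyclic loess (-0.07, adjusted p = 0.43). The other alpha chains did not pass: the log2 difference was 0.19 ± 0.08 (adjusted p = 0.07) for Lama5 and -0.15 ± 0.08 (adjusted p = 0.13) for Lama2.

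**Figure D2:**
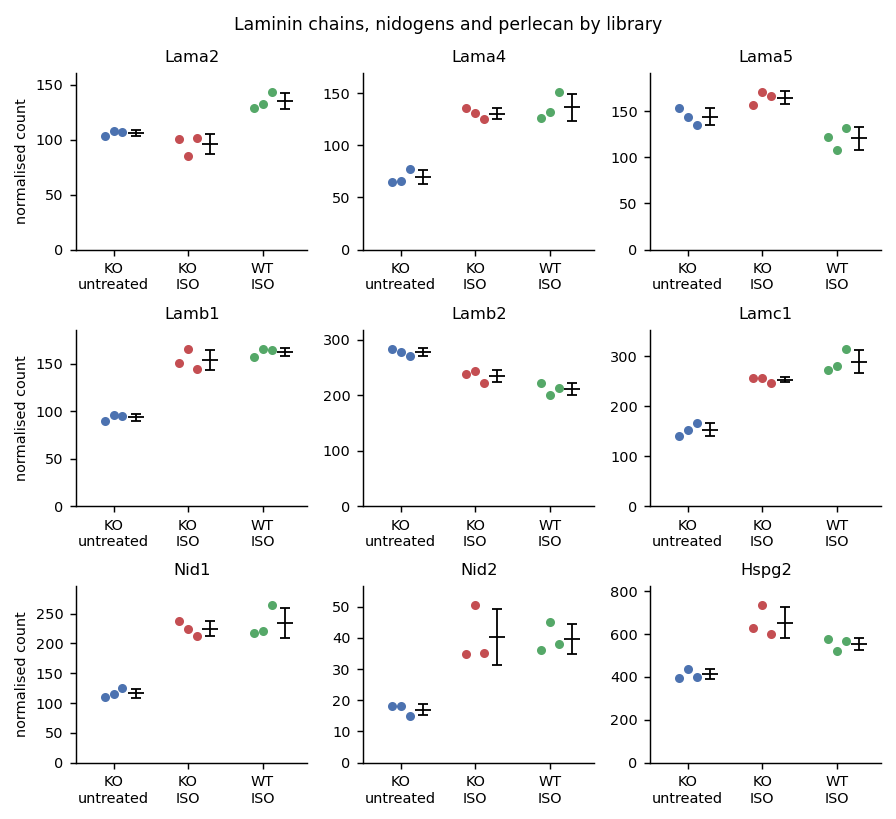
Normalised counts of the 9 tested laminin chains, nidogens and perlecan; each point is 1 library, and the bar beside each group is the mean ± SD of its 3 libraries (KO, OMA1 knockout; WT, wild type; ISO, isoproterenol; all axes start at 0). Nid1, Nid2, Lama4, Lamb1, Lamc1 and Hspg2 lie higher in both treated groups than in untreated knockout hearts, Lamb2 lies lower, and Lama2 and Lama5 differ between the treated groups.

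The integrin subunits that bind laminin moved apart. Itga6 (chromosome 2, 71745616 to 71858416), the laminin receptor subunit of endothelium and epithelium, stood at 109, 102 and 118 in untreated and 169, 180.4 and 176 in treated knockout libraries. The treated libraries were all higher, by 0.67 ± 0.07 (adjusted p = 8.8e-06) on the log2 scale. Itga7 (chromosome 10, 128933818 to 128958282) went from 147, 155 and 149 to 97.8, 85.5 and 92.6, the largest fall of the tested members, with no overlap and a log2 difference of -0.71 ± 0.07 (adjusted p = 5.4e-06). Itga3, another laminin-binding subunit, had low values of 13.0, 13.9 and 11.5 untreated and 9.33, 10.3 and 9.82 treated, close to the minimum for testing. Its libraries did not overlap either (log2 difference -0.35 ± 0.12 (adjusted p = 0.022); -0.20 with a pseudocount of 10), but the call was lost when untreated knockout replicate 1 (-0.33, adjusted p = 0.062), its replicate 2 (-0.29, adjusted p = 0.092) or replicate 1 of the treated knockout group was left out (-0.32, adjusted p = 0.068). It was also lost by DESeq2 (-0.36, adjusted p = 0.082) and when scaled without mitochondrial transcripts (-0.25, adjusted p = 0.08).

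Other alpha subunits also differed. Itga9, which binds tenascin and osteopontin (chromosome 9, 118606690 to 118901003), stood at 70.3, 71.0 and 67.3 untreated and 40.4, 41.1 and 48.7 treated. Every treated library was lower, by -0.67 ± 0.09 (adjusted p = 5.2e-05) on the log2 scale. The collagen-binding subunit Itga1 went from 30.6, 28.7 and 37.4 to 45.0, 46.3 and 46.1, without overlap and with a log2 difference of 0.50 ± 0.10 (adjusted p = 0.00078). Itga5, the fibronectin receptor subunit, went from 42.4, 45.5 and 47.1 to 59.4, 71.0 and 54.3, and its lowest treated library remained above the highest untreated one (log2 difference 0.44 ± 0.09 (adjusted p = 0.0014)). Itgam, the alpha subunit of a myeloid complement receptor, stood at 4.11, 5.53 and 4.14 untreated and 8.60, 10.6 and 10.1 treated. These were the lowest values of the tested members, and the log2 difference of 0.95 ± 0.17 (adjusted p = 0.00036) was 0.44 with a pseudocount of 10. Itgav, the subunit common to vitronectin receptors, differed by -0.24 ± 0.10 (adjusted p = 0.051) and did not pass.

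Of the beta subunits, Itgb6, which pairs with Itgav in a receptor that activates latent TGF-β, fell from 25.1, 23.9 and 24.0 to 16.2, 14.9 and 16.1. The 2 groups were clearly apart, with a log2 difference of -0.60 ± 0.12 (adjusted p = 0.0014). Itgb1 (chromosome 8, 128685654 to 128733200) stood at 345, 342 and 349 untreated and 389, 376 and 396 treated, a small step between groups that did not overlap, and its log2 difference of 0.16 ± 0.07 (adjusted p = 0.052) missed the threshold. Itgb5 ranged from 91.9 to 99.2 untreated and from 82.0 to 90.4 treated (log2 difference -0.11 ± 0.11 (adjusted p = 0.43)). Itgb1 and Lama5, which missed the threshold, passed it under many of the other settings. Itgb1 passed under each of the 4 other scalings, with a log2 difference of 0.27 (adjusted p = 0.0035) without mitochondrial transcripts and 0.36 (adjusted p = 0.00099) under cyclic loess. It also passed by edgeR (0.18, adjusted p = 0.045), by DESeq2 (0.19, adjusted p = 0.017), with the 2 knockout groups alone, with length and GC content corrected for, and without treated wild-type replicate 3 (adjusted p = 0.029) or, among treated knockout libraries, replicate 2 (adjusted p = 0.038). Lama5 reached 0.30 (adjusted p = 0.011) and 0.32 (adjusted p = 0.010) under the same 2 scalings. It passed as well with median-of-ratios scaling, by DESeq2 (0.21, adjusted p = 0.044), with the 2 knockout groups alone, with length and GC content corrected for, and when replicates 2 and 3 of treated wild-type hearts were left out in turn (adjusted p = 0.048 and 0.039). Itgav passed when their replicates 1 and 3 were (adjusted p = 0.045 and 0.018), under cyclic loess (-0.26, adjusted p = 0.043), with a robust prior, with the 2 knockout groups alone, and without the pair of libraries named above (-0.21, adjusted p = 0.050). Leaving out a wild-type library left these log2 differences as they were and acted through the spread shared by all groups and the set of genes tested. Cyclic loess and median-of-ratios scaling also used the wild-type libraries.

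**Figure D3:**
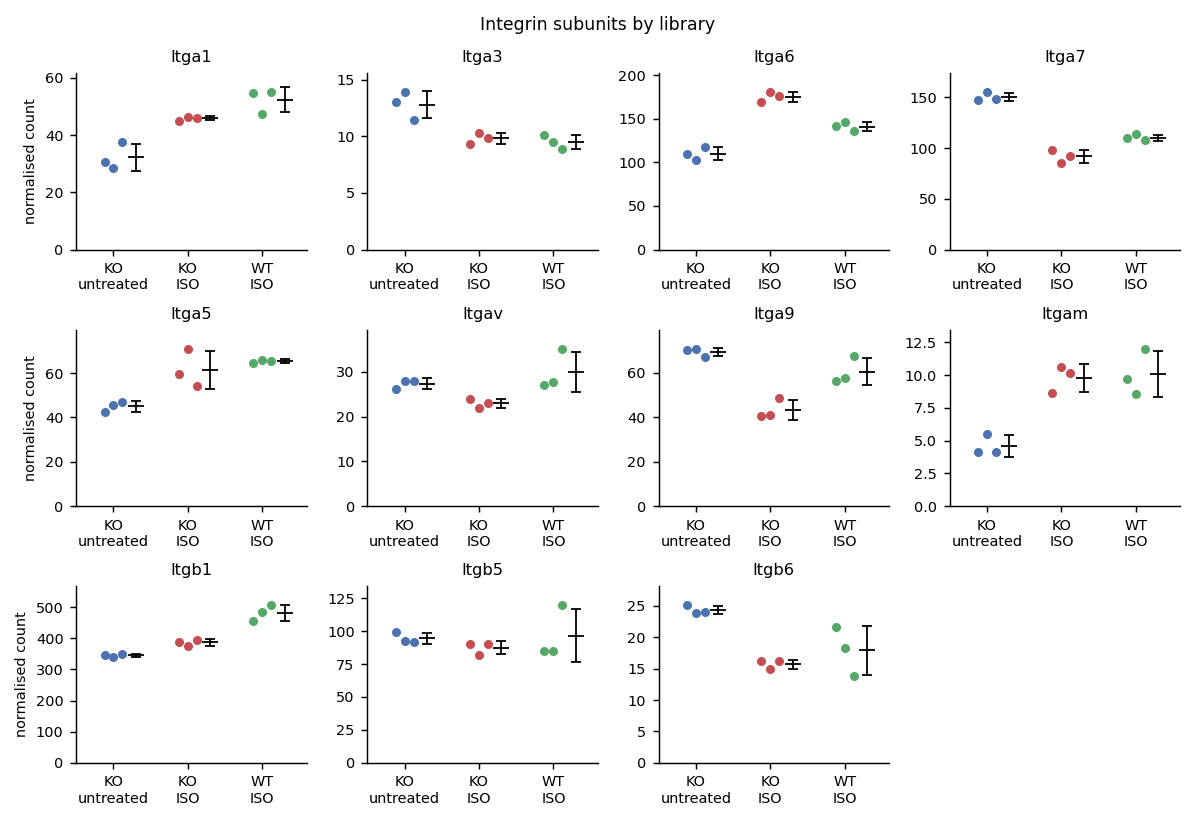
Normalised counts of the 11 tested integrin subunits; each point is 1 library, and the bar beside each group is the mean ± SD of its 3 libraries (KO, OMA1 knockout; WT, wild type; ISO, isoproterenol; all axes start at 0). Itga7 is highest in untreated knockout hearts and Itga6 in treated knockout hearts, and Itgb1 is highest in treated wild-type hearts.

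Markers of other cells of the heart moved with treatment as well. The summed level of the endothelial markers, 10 of 10 listed and none at 0 in any library, was 1097 to 1214 in untreated and 1988 to 2397 in treated knockout libraries. That of the fibroblast markers (10 of 10) was 2106 to 2202 and 2832 to 2904, that of activated fibroblasts (6 of 6) 53.9 to 62.2 and 273 to 359, and that of smooth muscle and pericytes (9 of 9) 984 to 1001 and 1236 to 1491. Markers of dividing cells (4 of 4) summed to 10.4 to 14.4 and 87.7 to 168. Those of macrophages (9 of 10 listed) summed to 251 to 359 and 341 to 392, with overlap. Atrial myocyte markers (5 of 5) went the other way, from 1129 to 2526 untreated to 87.8 to 119 treated, with Myl7, Bmp10 and Sln at 0 in at least 1 library. Cardiomyocyte marker sums, given above, were lower in every treated than in every untreated knockout library, with 2 of the 8 markers called lower and 6 not called. Endothelial (10 of 10 tested), fibroblast (7 of 9), activated fibroblast (2 of 4) and dividing cell markers (4 of 4) were called higher. Of 8 tested smooth muscle and pericyte markers 6 were higher and 1 lower, and of 6 macrophage markers 1 was higher. Over all tested genes 23.9% were higher and 27.4% lower. The part of these cell types in the differences of the integrin and laminin genes was not tested.

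**Figure D4:**
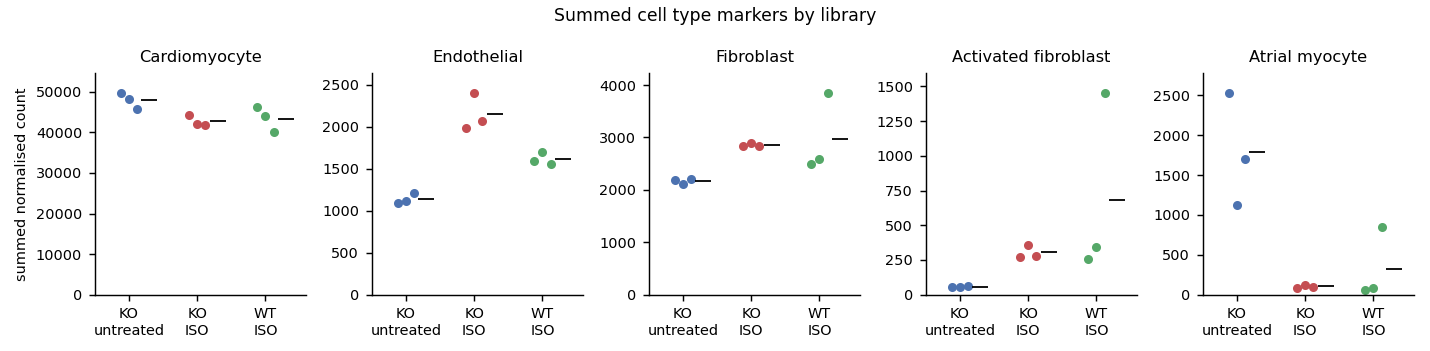
Summed normalised counts of 5 cell type marker lists; each point is 1 library and the short line beside each group is the mean of its 3 libraries (KO, OMA1 knockout; WT, wild type; ISO, isoproterenol; all axes start at 0). The endothelial sum is lowest in untreated and highest in treated knockout hearts, and treated wild-type replicate 3 lies far above its group for activated fibroblast and atrial markers (1449 and 844).

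Treated wild-type hearts were also set beside untreated knockout hearts, a contrast in which genotype and treatment both differ and which shares its untreated libraries with the comparison above. Nidogens, Lamc1, Lama4 and Lamb1 were higher in the treated wild-type hearts here too, and Lamb2 and Itga7 were lower. Of the 20 tested members, 12 were higher and 5 lower, where 16.4% and 16.9% of all tested genes were, with a median log2 difference of 0.39 for the members and 0.01 for all genes. Itgam is among the 12 and Itga3 among the 5, and each met the minimum for testing only through the groups where it was high. Higher genes were 49.3% of all calls, and 61.9% when mitochondrial transcripts were left out of the scaling. Without untreated knockout replicate 1, 2 members were lower, and without untreated knockout replicate 2, 3 were; the latter also left 920 of 1440 lower genes.

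Nid1 stood at 218, 221 and 264 in the treated wild-type libraries, and Nid2 at 36.0, 45.0 and 37.9. Their log2 differences from untreated knockout hearts were 0.997 ± 0.09 (adjusted p = 4.6e-06) and 1.173 ± 0.13 (adjusted p = 3.5e-05), beside 0.94 and 1.18 in treated knockout hearts. Lamc1 stood at 273, 280.1 and 315, Lama4 at 127, 132 and 151 and Lamb1 at 157, 165 and 164, with log2 differences of 0.92 ± 0.08 (adjusted p = 4.6e-06), 0.96 ± 0.09 (adjusted p = 5.6e-06) and 0.79 ± 0.07 (adjusted p = 5.7e-06). In each of these 5 genes every treated wild-type library was above every untreated knockout library, as in 12 of the 20 tested members, while 5 were lower without overlap. The share of all tested genes without overlap is not given here. Hspg2, at 575, 519 and 567, differed by 0.42 ± 0.08 (adjusted p = 0.002), and Lamb2, at 221, 199 and 212, by -0.39 ± 0.07 (adjusted p = 0.0008).

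Integrin subunits in the same contrast included Itga1, at 54.7, 47.4 and 54.977 in treated wild-type libraries, with a log2 difference of 0.69 ± 0.10 (adjusted p = 0.00017). Itga5 stood at 64.4, 66.1 and 65.5 and Itgam at 9.72, 8.53 and 12.0, and they differed by 0.53 ± 0.09 (adjusted p = 0.00076) and 0.98 ± 0.17 (adjusted p = 0.00061) (Itgam 0.46 with a pseudocount of 10). Low subunits gave the least certain calls. Itga3, at 10.1, 9.45 and 8.84, differed by -0.40 ± 0.12 (adjusted p = 0.017), which was -0.23 with a pseudocount of 10. The call needed replicate 3 of treated wild-type hearts (adjusted p = 0.056 without it) and each of the untreated knockout replicates 1 and 2 (adjusted p = 0.057 and 0.081 without them), and DESeq2 did not make it (adjusted p = 0.053). Itgb6 was spread from 13.8 to 21.6 in treated wild-type libraries. Its log2 difference of -0.44 ± 0.12 (adjusted p = 0.015) was -0.28 without replicate 3 of that group (adjusted p = 0.057) and was lost without untreated knockout replicate 1 (adjusted p = 0.054). Itgav, Itgb5 and Itga9 did not pass, with log2 differences of 0.12, 0.01 and -0.20, and Itga9 passed without treated wild-type replicate 3 (-0.28, adjusted p = 0.03). Marker sums differed in this contrast too. For endothelial cells they were 1551 to 1701 in treated wild-type and 1097 to 1214 in untreated knockout libraries. For activated fibroblasts they were 257 to 1449 and 53.9 to 62.2, and for dividing cells 89.8 to 129 and 10.4 to 14.4. Atrial myocyte sums were lower (53.5 to 844 and 1129 to 2526), and cardiomyocyte sums overlapped. The part of these cell types in the differences was not tested.

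The comparison of the treated groups sets the genotypes side by side at the same dose of isoproterenol. Most of the basement membrane genes that separated treated from untreated hearts, among them both nidogens, Lama4, Lamb1 and Lamc1, did not pass between the genotypes. Treated knockout hearts held less Lama2, Itga7, Itgb1, Itga9 and Itgav and more Lama5 and Itga6. Of the 20 tested members, 2 were higher and 5 lower, where 12.0% and 15.9% of all tested genes were, and the median log2 difference was -0.09 for the members and -0.01 for all genes. Without mitochondrial transcripts in the scaling 4 members were higher, and higher genes made up 56.6% of all calls in place of 43.0%. Without treated knockout replicate 2, 2 members were higher and 4 lower while the counts over all genes dropped from 1023 higher and 1356 lower to 534 and 802, and without treated wild-type replicate 1 the lower genes numbered 902.

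Of the 3 tested laminin alpha chains, Lama2 was lower and Lama5 higher in treated knockout hearts, and Lama4 did not pass. Lama2 (chromosome 10, 26980036 to 27619758) stood at 129, 133 and 143 in treated wild-type, 101, 85.4 and 101 in treated knockout and 103, 108 and 107 in untreated knockout libraries. Treated wild-type hearts were the high group without overlap, and the knockout groups were close to each other, with treated replicate 2 lowest. The log2 difference between the treated groups was -0.50 ± 0.08 (adjusted p = 0.0013), and treated wild-type exceeded untreated knockout hearts by 0.35 ± 0.08 (adjusted p = 0.0048). Lama5 (chromosome 2, 180176373 to 180225859) stood at 122, 108 and 132 in treated wild-type, 157, 171 and 166 in treated knockout and 154, 144 and 135 in untreated knockout libraries. Here treated wild-type hearts were the low group, below every knockout library. The log2 difference between the treated groups was 0.45 ± 0.08 (adjusted p = 0.0027). Against untreated knockout hearts the wild-type difference was -0.26 ± 0.08 (adjusted p = 0.03). Among treated wild-type libraries, that call needed replicate 1 (adjusted p = 0.051 without it) and replicate 2 (-0.18, adjusted p = 0.13 without it), and it was also lost without untreated knockout replicate 1 (adjusted p = 0.13) or replicate 2 (adjusted p = 0.084), when scaled without mitochondrial transcripts (adjusted p = 0.093) or by cyclic loess (adjusted p = 0.082), and once length and GC content were corrected for (-0.17, adjusted p = 0.1).

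Among the laminin-binding integrins, Itga6 stood at 141, 146 and 136 in treated wild-type libraries, between the untreated and the treated knockout groups and overlapping neither. Treated knockout hearts were higher by 0.31 ± 0.07 (adjusted p = 0.0073) on the log2 scale, and treated wild-type hearts exceeded untreated knockout hearts by 0.36 ± 0.07 (adjusted p = 0.002). Itga7, at 110.1, 113 and 108 in treated wild-type libraries, was also intermediate. It was lower in treated knockout than in treated wild-type hearts by a log2 difference of -0.26 ± 0.07 (adjusted p = 0.015) and lower in treated wild-type than in untreated knockout hearts by -0.44 ± 0.07 (adjusted p = 0.0004). The ratio of Itga6 to Itga7 ran, in normalised counts not divided by length, from 0.660 to 0.790 in untreated knockout through 1.26 to 1.28 in treated wild-type to 1.73 to 2.11 in treated knockout libraries.

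Itgb1 stood at 456, 486 and 507 in treated wild-type libraries, above all 6 knockout libraries. The log2 difference of treated knockout from treated wild-type hearts was -0.32 ± 0.07 (adjusted p = 0.0044), and that of treated wild-type from untreated knockout hearts 0.48 ± 0.07 (adjusted p = 0.00014). Itga9 stood at 56.3, 57.8 and 67.7, so that treated knockout libraries, all lower, were the low group (log2 difference -0.47 ± 0.09 (adjusted p = 0.003)). Itgav stood at 27.0, 27.8 and 35.2 in treated wild-type, 24.0, 22.0 and 23.0 in treated knockout and 26.1, 28.0 and 28.0 in untreated knockout libraries. Replicate 3 was the high wild-type library, and the log2 difference between the treated groups, -0.36 ± 0.10 (adjusted p = 0.016), lost its call without it (-0.24, adjusted p = 0.052). The same happened with treated knockout replicate 2 left out (-0.33, adjusted p = 0.056), without these libraries together (-0.21, adjusted p = 0.12) and once length and GC content were corrected for (-0.20, adjusted p = 0.15).

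Of the remaining members, Hspg2 was higher in every treated knockout than in every treated wild-type library, and its log2 difference of 0.24 ± 0.08 (adjusted p = 0.052) missed the threshold. It passed with replicate 3 of the treated wild-type group left out (0.25, adjusted p = 0.046), likewise with that of the treated knockout group left out (0.30, adjusted p = 0.035), by DESeq2 (0.26, adjusted p = 0.019) and under each of the 4 other scalings, at 0.25 (adjusted p = 0.043) with TMM. Lamb2 (0.15 ± 0.07 (adjusted p = 0.11)) passed when scaled without mitochondrial transcripts (0.20) or by cyclic loess (0.25). Itgb6, which differed by -0.16 ± 0.12 (adjusted p = 0.36), passed without treated wild-type replicate 3 (-0.32, adjusted p = 0.028). The log2 differences of Nid1, Nid2, Lama4, Lamb1 and Lamc1 were -0.06, 0.01, -0.06, -0.08 and -0.19. The 95% interval of Lamc1, -0.36 to -0.02, left out no difference, and every treated knockout library was below every treated wild-type library. Its limma adjusted p was 0.089. The intervals of the other genes named included no difference and lay within that of Nid2, -0.28 to 0.29. Itga1, Itga3, Itga5, Itgam and Itgb5 differed by -0.19, 0.05, -0.09, -0.03 and -0.12 and did not pass. Every treated knockout library was nevertheless below every treated wild-type library for Itga1, and above for Lamb2.

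Endothelial markers summed to 1551 to 1701 in treated wild-type and 1988 to 2397 in treated knockout libraries, with replicate 2 of the latter highest. Of these 10 markers 8 were called higher in treated knockout hearts, where 12.0% of all tested genes were. Fibroblast markers summed to 2491 to 3842 and 2832 to 2904 (3 of 9 tested called higher). Those of smooth muscle and pericytes summed to 1363 to 1606 and 1236 to 1491 (2 of 8 called lower, as were 15.9% of all tested genes). Activated fibroblast sums were 257 to 1449 and 273 to 359, and atrial myocyte sums 53.5 to 844 and 87.8 to 119, with no marker of either list called. Cardiomyocyte marker sums overlapped between the treated groups, while 5 of the 8 markers were called, Tnnt2 (log2 difference 0.31) and Tnni3 (0.45) higher and Ryr2 (-0.66), Ttn (-0.29) and Pln (-0.33) lower in treated knockout hearts. The part of these cell types in the differences of Lama2, Lama5, Itga6 and the other called members was not tested.

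**Figure D5:**
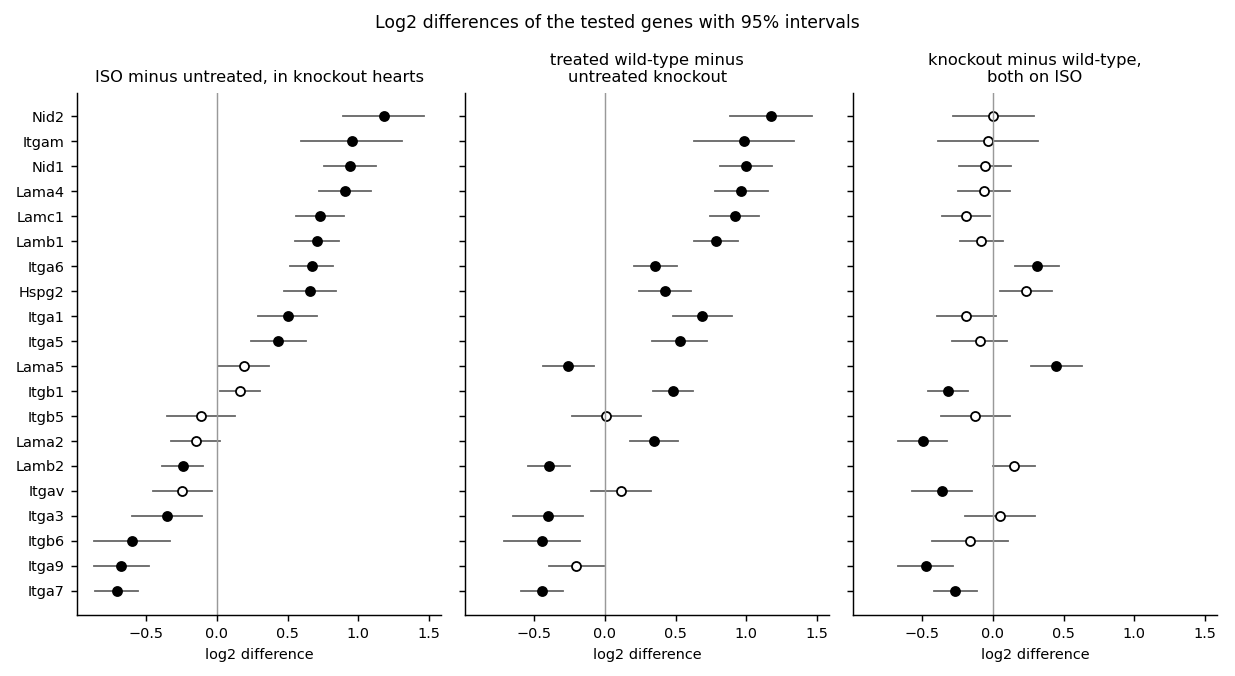
Log2 differences of the 20 tested members with their 95% intervals (lines) in the 3 comparisons, filled where the adjusted p was under 0.05 and open where it was not; genes are ordered by the difference between treated and untreated knockout hearts (ISO, isoproterenol). In the right panel, treated knockout against treated wild-type, Lama5 and Itga6 lie above 0 (0.45 and 0.31) and Lama2 and Itga9 lie furthest below (-0.50 and -0.47), while Nid1, Nid2, Lama4 and Lamb1 lie near 0.

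Across the 3 comparisons, which share libraries and so are not independent, 9 members were higher in both treated groups than in untreated knockout hearts and did not pass between the treated groups, namely Nid1, Nid2, Hspg2, Lama4, Lamb1, Lamc1, Itga1, Itga5 and Itgam. Of all tested genes 10.3% had these calls. Lamb2, Itga3 and Itgb6 were lower in both in the same way, as were 9.14% of all tested genes. Itgam and Itga3 each met the minimum for testing only through the groups where it was high. Itga6 was higher in all 3 comparisons, as were 2.07% of all tested genes, and Itga7 lower in all 3, as were 2.22%. Itgb1 and Lama2 were called only against treated wild-type hearts, from which both knockout groups were lower (1.62% of all tested genes). Lama5 was likewise called only against these hearts, with both knockout groups higher (2.26%), and Itgav with only treated knockout hearts lower (2.14%). Itga9 was lower in treated knockout hearts than in either other group (9.45%). Itgb5 was the member called in none, as were 36.3% of all tested genes.

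Other genes of these structures were followed through 3 lists, which were chosen with earlier results of these data known. Of the other basement membrane genes and non-integrin laminin receptors, 17 of 22 were tested, and 11 rose and 2 fell in treated against untreated knockout hearts, where 23.9% of all tested genes rose and 27.4% fell. The collagen IV chains Col4a1 (434 ± 22.3 untreated, 911 ± 72.9 treated, SD, n = 3) and Col4a2 rose by log2 differences of 1.06 and 0.95. Pxdn, the peroxidase that cross-links collagen IV, rose by 0.80, and Sparc, a collagen-binding matrix protein, by 1.46, from 341 ± 37.5 to 939.7 ± 77.2 (limma adjusted p from 9.5e-07 to 3.0e-06). In treated wild-type against untreated knockout hearts 11 were higher and 1 lower (16.4% and 16.9% of all tested genes), led by Col4a1 (1.03), Col4a2 (0.92), Fbln2 (1.36), a fibulin, and Sparc (1.43).

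Between the treated groups, 3 genes of the same list were higher and 2 lower in knockout hearts, shares near those of all tested genes (12.0% and 15.9%). Dag1, which encodes dystroglycan, stood at 280.4 ± 20.7 in treated wild-type, 152 ± 29.5 in treated knockout and 301 ± 23.0 in untreated knockout hearts. Treated knockout hearts were thus the low group, by -0.89 on the log2 scale (limma adjusted p = 0.00052). Agrn, a heparan sulfate proteoglycan that binds dystroglycan, went the other way, from 76.9 ± 2.28 in treated wild-type to 115 ± 15.5 in treated knockout hearts (log2 difference 0.56). Col4a5, a collagen IV chain, differed by -0.40 and Tinagl1 by 0.35, a call lost once length and GC content were corrected for (0.13, adjusted p = 0.23). Once length and GC content were corrected for, and also without treated wild-type replicate 3 and treated knockout replicate 2 together, 1 gene of the list was higher.

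Of the integrin adaptors and focal adhesion genes, 24 of 30 were tested, and 13 rose and 4 fell in treated against untreated knockout hearts (23.9% and 27.4% of all tested genes). Nedd9, a docking protein of focal adhesions, rose by 1.15 on the log2 scale (19.5 ± 1.06 to 44.5 ± 4.01), Tgfb1i1, a relative of paxillin, by 0.95, and Ptk2, focal adhesion kinase, by 0.49. Tns1, the actin linker tensin, differed by -0.57 (-0.36 under cyclic loess). Treated wild-type against untreated knockout hearts gave 11 higher and 1 lower (16.4% and 16.9% of all tested genes), with Nedd9 at 0.99, Tgfb1i1 at 0.72, Rsu1, a partner of the ILK complex, at 0.53 and Ptk2 at 0.37. Between the treated groups 3 were higher and 5 lower in knockout hearts, again near the 12.0% and 15.9% of all tested genes. Vinculin (Vcl, 132 ± 9.59 in wild-type and 99.6 ± 1.64 in knockout hearts) and Tln2, the talin of striated muscle, differed by -0.40 and -0.43. Lims2, an ILK partner, and paxillin (Pxn) were higher by 0.53 and 0.53 (Lims2 0.33 once length and GC content were corrected for). Without treated wild-type replicate 1, 2 adaptors were lower, and without treated knockout replicate 3, 5 were higher, while without untreated knockout replicate 2 the lower adaptor of the wild-type contrast was lost.

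Of the other integrin ligands, 12 of 19 were tested. In treated against untreated knockout hearts 9 rose and 1 fell, beside 23.9% and 27.4% of all tested genes, among them fibrillin (Fbn1, 1.39 on the log2 scale), Icam2 (1.06), an adhesion molecule of endothelium, tenascin-X (Tnxb, 0.71) and periostin (Postn, 2.55; 39.3 ± 5.11 to 235 ± 37.4). Treated wild-type against untreated knockout hearts gave 7 higher and 1 lower (16.4% and 16.9% of all tested genes), with Fbn1 at 1.77, Postn at 3.26, Fn1, fibronectin, at 1.97 and Icam2 at 0.63. The lower one was lost without each of treated wild-type replicates 1 and 2 and of the 3 untreated knockout replicates in turn. Postn stood at 198, 270 and 1043 in treated wild-type libraries (504 ± 469) and Fn1 at 137, 149 and 459 (248 ± 183), with replicate 3 far above the others. Without it the log2 differences from untreated knockout hearts were 2.53 for Postn, 1.41 for Fn1 and 1.55 for Fbn1. Between the treated groups 4 ligands were higher in knockout hearts (12.0% of all tested genes), Tnxb (0.39), Vtn, vitronectin (0.39), Icam2 (0.43) and Icam1 (0.57), the ligand of leukocyte integrins. Icam2 and Icam1 lost their calls without treated wild-type replicate 1 (adjusted p = 0.073 and 0.079) and without treated knockout replicate 2 (adjusted p = 0.071 and 0.084; Icam1 then differed by 0.30), Icam2 also without treated knockout replicate 3 (adjusted p = 0.055) and Icam1 without treated wild-type replicate 2 (adjusted p = 0.066). This count was 2 without treated wild-type replicate 1, where 3 ligands were lower, 2 without treated knockout replicate 2, and 1 once length and GC content were corrected for, and without treated wild-type replicate 2, 1 ligand was lower.

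The other 16 members fell short of the minimum, and no test was made of them. Lamb3, just outside it, stood at 7.06, 7.84 and 5.38 in treated wild-type, 12.7, 8.98 and 11.9 in untreated knockout and 9.12, 4.59 and 7.95 in treated knockout libraries, beside Itgam and Itga3 just inside. Lama3, also a laminin chain of epithelium, ranged from 3.02 to 5.43 over the 9 libraries. Of the collagen-binding subunits, Itga11 ranged from 2.17 to 8.84, with treated wild-type replicate 3 the highest library, while Itga2 ranged from 0.246 to 1.55 and Itga10 from 0.967 to 4.06. Itga8 ranged from 4.55 to 6.42, Itga4 from 3.11 to 6.89 and the platelet subunit Itga2b from 0.550 to 4.01. The leukocyte subunits Itgal, Itgax, Itgb2 and Itgb7 ranged from 1.73 to 5.04, 0.604 to 2.08, 5.92 to 9.13 and 0.642 to 1.97. Itgb3 ranged from 1.93 to 5.63, Itgb4, the hemidesmosome subunit, from 2.20 to 4.06, and Itgb8 from 1.83 to 3.38. Itgb7, singled out after its values were seen, stood at 1.57, 1.97 and 1.66 in untreated knockout libraries and at 0.642 to 0.938 in the treated libraries of both genotypes, without overlap, on 7 to 16 reads a library. Behind the values of the 16 members were 2 to 105 reads per library.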

How the data were processed

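RNA from mouse hearts was extracted with TRIzol and spin columns and sequenced as 9 libraries after TruSeq library preparation, per the labels' protocols. The deposited values are signal, expected counts that the authors normalized to library size; the submitters' processing notes name cutadapt, RSEM, limma and GRCm38, and the aligner is not given in the sources used here, nor are settings. Dividing by a step fixed per library gave whole reads (100% of values within 0.02 reads), the 6933879 to 12187701 reads per library used for edgeR 4.0.16 and DESeq2 1.42.0.

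Genes at 10 or more in 3 or more libraries, 8543 of 13539, were fitted with limma 3.58.1 (R 4.3.3) on log2(value + 1), with a mean for each of the 3 groups and a mean-variance trend. A value on this scale understates the change of low genes. Tests were two-sided, with Benjamini-Hochberg adjustment over all genes fitted and a threshold of 0.05, and errors of log2 differences are standard errors. Lengths came from GENCODE M21 (GRCm38) exon unions. The correction for length and GC content used splines with 5 degrees of freedom in each library. The fit was tested on simulated data.

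The gene families, lists and naming rule were chosen with earlier results of these data known. The rule gave values in every library for up to 6 higher and 6 lower members with the smallest p in each comparison and for 13 core members, and up to 4 genes of each pathway list. The closing section gives the alternatives, in pseudocount, filter, scaling, fit, threshold, block and libraries. The values of 1 member below the minimum are not reported here.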

Additional observations from a re-analysis of the deposited data

How the results depend on the processing

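Other settings tried numbered 26, of which 9 leave out 1 library, and 1 more, chosen after the data were seen, leaves out treated wild-type replicate 3 and treated knockout replicate 2 together. No member called in a comparison changed direction under any of them. Between the treated groups, 4 members were higher when mitochondrial transcripts were left out of the scaling and 4 under cyclic loess, and 3 were lower between the knockout groups under the former. At a threshold of 0.01, 3 members and 601 genes were lower and 358 genes higher between the treated groups, and 2 members and 807 genes were lower and 835 higher in treated wild-type against untreated knockout hearts. With 1 library left out in turn, the counts between the treated groups ran from 534 to 979 genes higher and 802 to 1403 lower. With treated wild-type hearts set against untreated knockout hearts, 2 to 5 members and 920 to 1597 genes were lower. On the recovered reads, edgeR called 1160 genes higher and 1269 lower between the treated groups. Its counts between the knockout groups were 2139 and 2208.

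Log2 differences that changed sign belonged to genes that did not pass. Between the treated groups, Itgam was 0.012 with scaling without mitochondrial transcripts. Under cyclic loess Lama4, Lamb1 and Nid1 were 0.017, 0.0031 and 0.033. With the length and GC correction, with or without the replicate block, Itga1, Itga3, Itgam, Lama4, Nid1 and Nid2 were 0.0043, -0.052, 0.024, 0.021, 0.021 and -0.026. Without both libraries named above, Itga3, Itgb5, Lama4, Nid1 and Nid2 were -0.027, 0.088, 0.011, 0.033 and -0.19, and against untreated knockout hearts Itgav and Itgb5 were -0.00037 and -0.15. With 1 library left out, values between the treated groups ran from -0.14 to 0.050 for Itgam, -0.21 to 0.042 for Itgb5, -0.11 to 0.015 for Lama4, -0.11 to 0.032 for Nid1 and -0.17 to 0.097 for Nid2. In treated wild-type against untreated knockout hearts they ran from -0.00037 to 0.19 for Itgav and -0.15 to 0.096 for Itgb5. The cause of these changes was not tested.

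Replicate numbers are shared between the groups, but same-numbered libraries did not deviate together: their correlations ran from -0.14 to 0.18 over 9 pairs, and 2 of 9 libraries correlated best with their own number in both other groups. With the replicate block, members called were 2 higher and 5 lower for the treated groups, 10 and 5 for the knockout groups and 12 and 5 in the remaining contrast, and no member gained or lost a call. With the block and the length and GC correction together, 861 genes were lower between the treated groups and 3 members lower in treated wild-type against untreated knockout hearts. Itgam fell below the minimum in 4 of the 27 alternatives and was not tested there. The 16 members below the minimum were not tested, and whether more depth would change their values was not tested.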
